A study of Taeniopygia guttata with 21 samples.

Results

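Skin of the back was compared with skin of the belly in zebra finch embryos, with the skin of the flank set aside. The comparison took 18 of the 21 libraries of the series, chosen by their labelled location: 9 dorsal libraries, 3 each from the anterior, saddle and posterior back, and 9 ventral libraries, 3 each from the anterior, ventral-most and posterior belly. All libraries came from wild type Taeniopygia guttata, a songbird whose adult plumage has distinct colour patches, at stage HH28, when feather fields are being laid out. The 3 libraries of each location carried the numbers 3, 8 and 11, and the same numbers recur at every location. The series asked which genes are confined to presumptive colour domains. The sources used here do not say whether a number marks an embryo or a pool, nor the sex of the embryos. P-values of the main fit measure the spread between these libraries left after location and number, which may be partly technical. They count the 3 libraries of a number on a side as separate, although only the numbers 3, 8 and 11 stand behind each contrast.

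The skin of the trunk is built from several sources. The dermis of the back comes from the somites, that of the belly from the lateral plate, and both are covered by an ectodermal epidermis. Pigment cells enter the skin as melanoblasts from the neural crest, and birds and mammals share agouti signalling protein (ASIP), a secreted antagonist that shifts or lowers melanin synthesis and is a classic marker of pale bellies. The deposited values are read counts divided by a size factor per library and are called normalised reads below. Tests used limma on log2(value + 1) with the number as a block and each location weighted alike, and a gene is called where its adjusted p was below 0.05. Differences are dorsal minus ventral on that log2 scale, each with its standard error (SE), and for genes with few reads the pseudocount of 1 shrinks them. Levels of a side are given as the lowest, the median and the highest of its 9 libraries, in that order, and levels of a location as mean ± SD over its 3 libraries.

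Depth was 20.1 ± 2.54 M reads in dorsal and 17.5 ± 2.33 M in ventral libraries (M, mega; SD, n = 9 each), with a full range of 12.9 to 23.0 M. The lowest depth was that of ventral posterior number 8. Body side accounted for 90.0% of the first principal component, which carried 19.4% of the variance. The number accounted for 92.5% and 92.6% of the second and the third, which carried 16% and 12.6%. Location accounted for 93.7% of the next, which carried 10.2%. Markers of skin were present throughout: the epidermal regulator TP63 had at least 766 normalised reads in every library and the dermal proteoglycan gene DCN at least 13281.

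Of 13900 genes tested, 3848 were called (27.7%), 2021 higher in dorsal skin (14.5%) and 1827 higher in ventral skin (13.1%). A difference of at least 2-fold was found for 687 of the dorsal genes (4.94% of those tested) and 548 of the ventral genes (3.94%). For 911 of these 1235 genes (73.8%) every one of the 9 pairings of a dorsal with a ventral location went the same way, and for 324 it did not. Complete separation was rarer. In 195 genes (1.4%) the 9 dorsal and 9 ventral libraries did not overlap, 128 with all dorsal libraries above (0.921%) and 67 with all ventral libraries above (0.482%). The number of called genes was lower when one of the numbers was left out, at 2165 without number 3, 1800 without number 8 and 3168 without number 11. Without the block it was 2242. The 1443 called genes without a symbol are counted here and named nowhere.

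Among the largest dorsal differences of named genes without overlap were those of FOXB1 and ZIC1, transcription factors of dorsal tissues. FOXB1, a forkhead gene at 4906388 to 4907350 of chromosome 10 (GSZG0001339), stood at 84.3, 163 and 483 dorsally and at 0, 0 and 2.18 ventrally (log2 difference 7.25, SE 0.35, limma adjusted p = 2.26e-08). Its 3 ventral reads gave a ratio of 666 with a 95% interval of 228 to 3234. That interval covers counting error of the pooled reads only and not the spread between libraries. FOXB1 was not called as varying within either side.

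ZIC1, a zinc finger gene that marks dorsal somite derivatives, lies at 13479678 to 13483103 of chromosome 9 (GSZG0013897). Its levels were 1009, 1993 and 6504 dorsally and 0, 2.74 and 548 ventrally (log2 difference 7.92, SE 0.53, limma adjusted p = 8.87e-07). ZIC1 too was picked among genes without overlap, but its ventral locations were unlike each other (limma adjusted p = 0.00073 among them). All 3 ventral anterior libraries held 0 reads, so the dorsal anterior level of 2056 ± 840 was at least 2068-fold higher against a floor of 3 reads over that location. Ventral-most skin held 75.8, 175 and 548 and ventral posterior skin 8.93 ± 13.2.

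PAX3, a paired-box gene of the dermomyotome and of the neural crest, was at 165, 218 and 298 dorsally and at 0, 21.5 and 306 ventrally (log2 difference 3.51, SE 0.57, limma adjusted p = 0.000532). The overlap came from 1 ventral anterior library, number 3, which held the 306. SOX21, a SOX factor, was at 230, 365 and 465 dorsally and at 18.5, 42.5 and 263 ventrally (log2 difference 2.62, SE 0.19, limma adjusted p = 8.89e-07). DMRT2, a somite factor, was called at 2.20 (SE 0.40, limma adjusted p = 0.00118) although its location means interleaved. They were 3944 ± 1101, 3391 ± 3013 and 10028 ± 3914 from front to back dorsally, against 358 ± 421, 493 ± 289 and 12188 ± 5896 in ventral anterior, ventral-most and ventral posterior skin.

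In the list of 17 tested regulators of dorsal mesoderm and dermis, 8 were higher dorsally (47.1%, against 14.5% of all genes), 5 higher ventrally (29.4%, against 13.1%) and 4 not called, with a median difference of 1.08 against 0.00076 over all genes tested. Those shares of all genes, 14.5% and 13.1%, are also the background for each list that follows. They include genes without a symbol, which no list could hold and which were called less often. Of 13900 genes tested 7929 had a symbol, and of 3848 called 1443 had none. Lists and members were chosen with earlier results of these data known, so the list shares are descriptions and not tests. The dorsal 8 also held TBX15 and LMX1A. The ventral 5 were MEOX1, MEOX2, TBX18, SIM1 and TWIST2. MEOX1 and MEOX2, homeobox genes of the somites, were lower dorsally by 2.07 and 1.91 (log2 differences -2.07 and -1.91, SE 0.35 each, limma adjusted p = 0.000704 and 0.00129). The ventral calls for TBX18, SIM1 and TWIST2 were less settled. TBX18 was called in opposite directions at the ends. It was higher dorsally between the anterior locations (log2 difference 1.40, limma adjusted p = 0.0262). Between the posterior ones it was lower dorsally (log2 difference -3.04, limma adjusted p = 0.000743). Its difference between the sides turned to 0.13 without dorsal posterior skin and was not called without ventral-most skin. The call for SIM1 ended in 22 of 37 alternatives and that for TWIST2 in 6. The call for TBX15 ended without the block and without dorsal anterior skin.

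**Figure D1:**
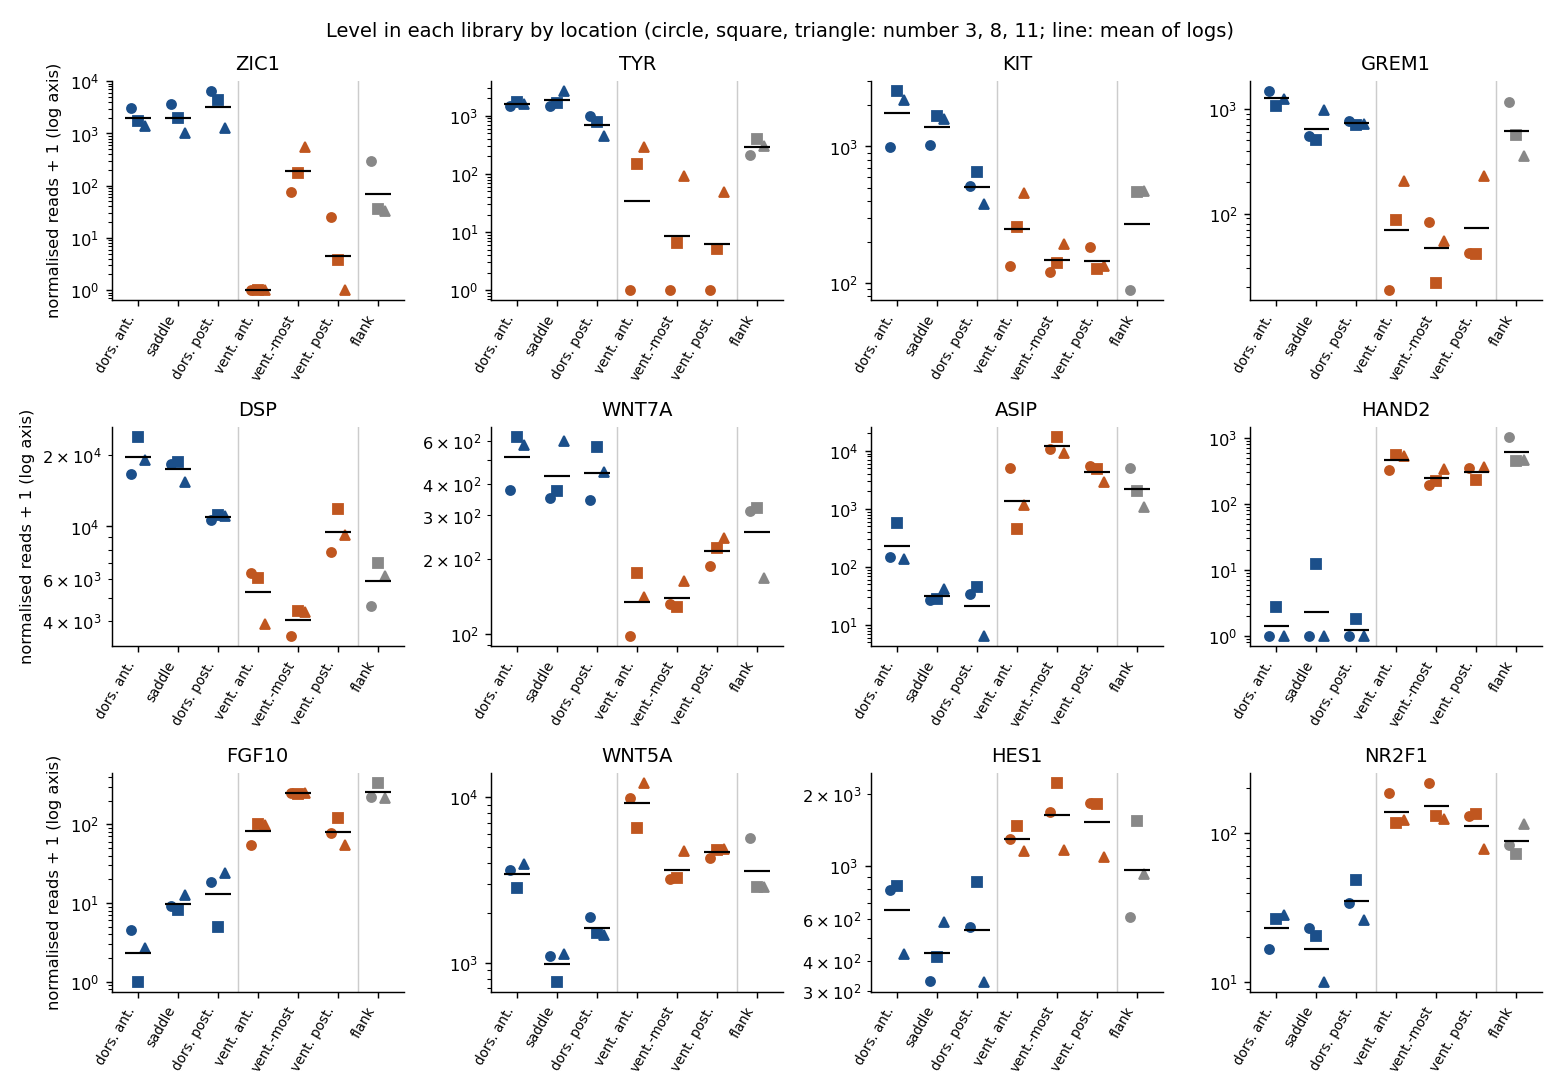
Normalised reads + 1 per library (log axis) of 12 genes by location, flank included; circles, squares and triangles are the numbers 3, 8 and 11 and each line is the mean of the logs at a location. ZIC1, TYR and GREM1 lie higher at the 3 dorsal locations than at the 3 ventral ones compared here, HAND2, FGF10, HES1 and NR2F1 lie lower, and ventral TYR spreads from 0 to 288.

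Regulators of the lateral plate, body wall and limb went the other way. Of 17 tested, 14 were higher ventrally and none dorsally, against 13.1% and 14.5% of all genes, and the median difference was -2.56. HAND2, a basic helix-loop-helix factor of lateral plate mesoderm, lies at 34428115 to 34429737 of chromosome 4 (GSZG0010404). It stood at 0, 0 and 11.5 dorsally and at 193, 342 and 553 ventrally (log2 difference -7.69, SE 0.39, limma adjusted p = 3.41e-08). Of the 17 it was the only gene whose sides did not overlap. Its 11.5 came from dorsal saddle number 8, and no other dorsal library exceeded 1.76.

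GATA5, a zinc finger factor of lateral plate derivatives, was at 0, 3.63 and 375 dorsally and at 1.84, 2209 and 3261 ventrally (log2 difference -6.18, SE 1.08, limma adjusted p = 0.000983). It was high in ventral-most skin (2559 ± 575) and ventral posterior skin (2412 ± 1045) and uneven in ventral anterior skin (266 ± 454). The dorsal 375 came from 1 saddle library (saddle 127 ± 215). Dorsal anterior skin held 1.72 ± 1.69 and dorsal posterior skin 8.36 ± 2.22. LHX8, a LIM homeobox gene, was at 1.66, 3.53 and 8.76 dorsally and at 8.21, 66.7 and 1130 ventrally (log2 difference -4.09, SE 0.48, limma adjusted p = 3.22e-05). ISL1, another LIM homeobox gene, was at 0, 5.47 and 38.3 dorsally and 1.82, 133 and 2031 ventrally (log2 difference -3.52, SE 0.56, limma adjusted p = 0.000368). Its highest location was ventral posterior skin at 1016 ± 922, whereas LHX8 was highest in ventral anterior skin at 663 ± 537.

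OSR2, a zinc finger factor of body wall and limb mesenchyme, was at 0, 115 and 1428 dorsally and 187, 1781 and 9234 ventrally (log2 difference -3.97, SE 0.34, limma adjusted p = 4.07e-06). Its levels fell along the back, from 933 ± 713 anteriorly to 29.6 ± 35.5 posteriorly, and differed among the dorsal locations (limma adjusted p = 0.00033). TLX1, a homeobox gene, was confined to 1 location: ventral anterior libraries held 6885, 550 and 222 normalised reads, and no other library of the 18 held more than 11. Dorsal anterior skin held 0 reads, so the ventral anterior mean was at least 2941-fold higher against a floor of 3 reads over that location, or at least 445-fold without the library at 6885. TLX1 was called by limma (log2 difference -3.58, SE 0.64, adjusted p = 0.000856) but not by edgeR or DESeq2. The number of called members of the list was 9 in place of 14 without number 8, without number 11, or with the flank counted among the ventral locations.

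HOX genes pattern the body from front to back, and 19 of them were tested. Among 7 of the paralog groups 1 to 5, HOXD4 and HOXD3 were higher dorsally and HOXA2 and HOXA3 higher ventrally. HOXD4 was at 194, 271 and 1787 dorsally and 54.3, 102 and 228 ventrally (log2 difference 2.17, SE 0.20, limma adjusted p = 4.35e-06), led by dorsal anterior skin at 1651 ± 184. HOXD3 was at 240, 310 and 830 dorsally and 52.4, 108 and 160 ventrally (log2 difference 2.01, SE 0.19, limma adjusted p = 4.71e-06), without overlap. HOXA2 was at 173, 296 and 2565 dorsally and 331, 783 and 3021 ventrally (log2 difference -0.80, SE 0.17, limma adjusted p = 0.00257). Its anterior means were 2493 ± 67.9 dorsally and 2919 ± 126 ventrally, and the call ended when dorsal saddle, dorsal posterior or ventral anterior skin was left out. HOXA3 differed by -0.33 (SE 0.08, limma adjusted p = 0.00467), and the sign turned without dorsal posterior or ventral anterior skin.

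Of 5 genes of groups 6 to 8, HOXB7, HOXA7 and HOXA6 were called higher dorsally and none ventrally. Each difference rested on ventral anterior skin. HOXB7 held 0.613 ± 1.06 there against 105 ± 65.6 in dorsal anterior skin, while its highest level of all was in ventral-most skin at 555 ± 130. HOXA7 held 25.1 ± 13.1 in ventral anterior skin and 719 ± 49.5 in ventral-most skin, against 647 ± 90.8 in the saddle. Their overall differences were 1.34 (SE 0.23, limma adjusted p = 0.000626) for HOXB7, 1.23 (SE 0.17, limma adjusted p = 9.3e-05) for HOXA7 and 0.88 (SE 0.25, limma adjusted p = 0.0183) for HOXA6. Without ventral anterior skin they became -1.05, -0.14 and -0.03. HOXB7 was also not called with a pseudocount of 10 or with the flank, and HOXA6 not without the block, with the flank, without number 8 or 11, or without the saddle.

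Of 7 genes of groups 9 to 13, 3 were called higher dorsally and none ventrally. Among the 18 libraries HOXD11 was read almost only in dorsal posterior skin, at 534 ± 338 and at least 615-fold above dorsal anterior skin, where it held 0 reads; its ventral libraries held at most 4.10, and the flank libraries held 66.4, 243 and 154. HOXA11 was high at both posterior locations, 2259 ± 144 dorsally and 1262 ± 152 ventrally. HOXD10 was at 1.75, 155 and 503 dorsally and 0, 27.4 and 93.3 ventrally (log2 difference 2.18, SE 0.54, limma adjusted p = 0.00843). HOXD11 differed by 2.92 (SE 0.61, limma adjusted p = 0.00267) and HOXA11 by 1.73 (SE 0.44, limma adjusted p = 0.00893). Without number 8 neither HOXA11 nor HOXD10 was called and HOXD11 fell below the filter on low values. HOXA11 became -1.09 without dorsal posterior skin, and HOXD11 was called neither by edgeR or DESeq2 nor with the flank, where its difference was 1.26. The calls for HOXA11 and HOXD10 ended in 6 and 4 alternatives in all.

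Genes of melanin synthesis and the melanosome were higher in dorsal skin. Of 18 tested, 14 were higher dorsally and none ventrally, against 14.5% and 13.1% of all genes, with a median difference of 0.98. TYR, the rate-limiting enzyme of melanin synthesis, lies at 82001752 to 82044800 of chromosome 1. Dorsally it stood at 447, 1503 and 2676 and ventrally at 0, 5.45 and 288 (log2 difference 6.71, SE 0.87, limma adjusted p = 0.000111), without overlap. The ventral values followed the number at each location. All 3 libraries of number 3 held 0, those of number 8 held 146, 5.45 and 4.11, and those of number 11 held 288, 92.9 and 47.2 (ventral anterior, ventral-most and ventral posterior). The difference was accordingly 4.89 without number 3 and 8.31 without number 11, and it was called in every alternative run.

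Other enzymes and melanosome proteins were higher dorsally too. TYRP1, a melanosomal enzyme, was at 145, 241 and 534 dorsally and 0, 7.26 and 86.1 ventrally (log2 difference 5.19, SE 0.59, limma adjusted p = 3.21e-05). DCT, dopachrome tautomerase, was at 171, 378 and 991 dorsally and 7.26, 31.1 and 227 ventrally (log2 difference 3.52, SE 0.25, limma adjusted p = 6.92e-07). GPNMB, a melanosomal membrane glycoprotein, was at 1091, 2019 and 3827 dorsally and 5.48, 27.2 and 906 ventrally (log2 difference 5.29, SE 0.61, limma adjusted p = 4.18e-05). The sides separated completely for TYRP1 and GPNMB and met at their edges for DCT. Ventral GPNMB, like TYR, was highest in number 11 at each location. For numbers 3, 8 and 11 it was 16.5, 327 and 906 in ventral anterior skin. In ventral-most skin it was 5.99, 27.2 and 298, and in ventral posterior skin 6.27, 5.48 and 181. For SLC45A2 and GPR143, given next, the highest ventral library was instead ventral anterior number 3. SLC45A2, a melanosome transporter, was at 70.1, 157 and 235 dorsally and 0, 8.28 and 66.2 ventrally (log2 difference 4.57, SE 0.55, limma adjusted p = 4.14e-05). GPR143, a receptor of the melanosome membrane, was at 99.6, 185 and 472 dorsally and 2.74, 28.6 and 52.5 ventrally (log2 difference 3.28, SE 0.41, limma adjusted p = 5.45e-05). TRPM1, a melanocyte channel, and MLPH, the melanosome transport adaptor melanophilin, differed by 4.37 (SE 0.73, limma adjusted p = 0.000698) and 2.61 (SE 0.44, limma adjusted p = 0.000608).

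Other members of the list differed by less. SLC24A5, an ion exchanger of the melanosome, was at 606, 1305 and 1574 dorsally and 506, 684 and 761 ventrally (log2 difference 0.72, SE 0.07, limma adjusted p = 1.06e-05). For it, dorsal posterior skin, at 638 ± 53.7, had its mean within the ventral range. Calls below 1 on the log2 scale were also made for RAB32, RAB38, MREG, MYO5A and RAB27A, and OCA2, ATP7A, HPS5 and HPS1 were not called. The summed level of the list was 8564, 11510 and 17021 dorsally and 4666, 5759 and 7871 ventrally. In pieces of skin, fewer pigment cells and less RNA per pigment cell cannot be told apart, and the same holds for every cell type below.

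Regulators of melanoblasts leaned dorsally too, with 9 of 15 tested genes higher dorsally and 3 ventrally and a median of 0.62. SOX10, the neural crest factor upstream of pigment genes, was at 223, 416 and 647 dorsally and 0, 37.2 and 220 ventrally (log2 difference 3.74, SE 0.51, limma adjusted p = 0.000134). Ventral SOX10 rose from number 3 to 8 to 11 at each location. It was 36.0, 63.5 and 179 anteriorly, 8.98, 37.2 and 220 ventral-most, and 0, 5.48 and 60.5 posteriorly. KIT, the receptor on melanoblasts for the ligand KITLG, was at 379, 1028 and 2553 dorsally and 119, 139 and 453 ventrally (log2 difference 2.62, SE 0.21, limma adjusted p = 1.64e-06). SOX10 did not overlap between sides; for KIT the dorsal posterior libraries (514 ± 136) overlapped the highest ventral anterior one. TFAP2B, an AP-2 factor of the neural crest and ectoderm, was at 2470, 3000 and 4681 dorsally and 361, 826 and 1306 ventrally (log2 difference 2.14, SE 0.17, limma adjusted p = 1.64e-06), without overlap.

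MITF, the master regulator of the pigment cell fate, was not called. It stood at 285, 378 and 605 dorsally and 263, 416 and 1048 ventrally (log2 difference -0.07, SE 0.12, limma adjusted p = 0.709), and the sign turned in 5 alternatives, reaching 0.16 without ventral anterior skin. EDNRB, an endothelin receptor, was at 134, 460 and 1509 dorsally and 110, 244 and 521 ventrally (log2 difference 0.96, SE 0.27, limma adjusted p = 0.0163). That call ended in 6 alternatives, among them leaving out number 3 or number 11. ADAMTS20, a protease of the melanoblast path, was higher ventrally, at 24.9, 71.9 and 204 dorsally against 156, 241 and 370 (log2 difference -1.54, SE 0.24, limma adjusted p = 0.000287). The other ventral members were SOX9 at -0.84 (SE 0.27, limma adjusted p = 0.0325) and BCL2 at -0.58 (SE 0.18, limma adjusted p = 0.0268), whose calls ended in 16 and 13 of 37 alternatives. Leaving out number 8, or dorsal anterior skin, gave the list 7 calls in place of 12.

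Signals that act on pigment cells ran mostly the opposite way. Of 16 tested secreted regulators of melanocytes, 8 were higher ventrally and 3 dorsally, with a median of -0.67. ASIP, at 1861698 to 1865428 of chromosome 20, stood at 5.47, 40.0 and 563 dorsally and at 447, 5092 and 17474 ventrally (log2 difference -6.28, SE 0.46, limma adjusted p = 1.64e-06). The back rose to 282 ± 244 anteriorly from 30.7 ± 8.07 in the saddle and 27.8 ± 20.2 posteriorly. On the belly ASIP was 2234 ± 2501 anteriorly, 12467 ± 4428 ventral-most and 4427 ± 1330 posteriorly. The sides overlapped through 1 dorsal anterior library at 563 and 1 ventral anterior library at 447, both of number 8. The overall call held in every alternative run.

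KITLG ran with its receptor, at 295, 533 and 924 dorsally and 177, 268 and 468 ventrally (log2 difference 0.96, SE 0.11, limma adjusted p = 2.54e-05). TGFB2, a TGF-beta ligand, was at 203, 776 and 1488 dorsally and 1301, 2383 and 10946 ventrally (log2 difference -2.01, SE 0.28, limma adjusted p = 0.000181). GDNF, a neurotrophic ligand, was lower dorsally, at 1.66, 3.48 and 17.7 against 2.09, 10.9 and 80.9 (log2 difference -1.59, SE 0.36, limma adjusted p = 0.00462). ADAMTS9, a secreted protease, differed by -0.80 (SE 0.16, limma adjusted p = 0.00166), with ventral anterior skin at 1625 ± 228 and every other location mean at or below 483. BMP4 was also a dorsal member. The list had 7 calls in place of 11 without the block, without each of the 3 numbers in turn, and without each of dorsal anterior, saddle and ventral anterior skin. Among its members, ADAMTS9 was lost without number 11 and without ventral anterior skin, and GDNF without number 3 and without ventral-most skin.

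Epidermal genes were widely higher in dorsal skin. Of 21 tested, 17 were higher dorsally and none ventrally, with a median of 1.08. PKP1, plakophilin 1 of the desmosome, was at 706, 1347 and 1877 dorsally and 183, 366 and 617 ventrally (log2 difference 1.74, SE 0.17, limma adjusted p = 7.96e-06), without overlap. DSP, desmoplakin, was at 10610, 16572 and 23859 dorsally and 3460, 6066 and 11846 ventrally (log2 difference 1.40, SE 0.09, limma adjusted p = 4.17e-07). TP63, the factor that keeps the epidermal fate, was at 2061, 2874 and 4233 dorsally and 766, 1520 and 2162 ventrally (log2 difference 1.09, SE 0.07, limma adjusted p = 4.17e-07). Both overlapped through 1 ventral posterior library.

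The epithelial splicing regulators behaved alike. ESRP1 was at 390, 535 and 635 dorsally and 113, 216 and 326 ventrally (log2 difference 1.22, SE 0.13, limma adjusted p = 1.17e-05). ESRP2 was at 1527, 2555 and 3805 dorsally and 670, 1154 and 1556 ventrally (log2 difference 1.2, SE 0.10, limma adjusted p = 1.94e-06). GRHL3, a grainyhead factor of the skin barrier, differed by 1.45 (SE 0.23, limma adjusted p = 0.00051). The 4 genes not called were PKP3, CLDN1, ITGB4 and MARVELD2. The summed level of the list was 28906, 43771 and 63097 dorsally and 13868, 22307 and 29368 ventrally. The median difference of the list was 1.25 in the anterior contrast and 0.39 in the posterior contrast. Medians over all genes are not given for those contrasts, so these values have no background beside them. The difference between the ends was called for 4 of the 21, DSP and TP63 among them, against 3.45% of all genes.

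Genes of the feather placode, the epidermal thickening from which a feather grows, and of the dermal condensation under it were mostly not called. Of 19 tested, 4 were higher dorsally (21.1%, against 14.5% of all genes), 1 ventrally (5.26%, against 13.1%) and 14 not called, with a median of 0.17, so the shares lay near those of all genes. EDAR, the ectodysplasin receptor of placodes, was at 266, 364 and 620 dorsally and 76.9, 194 and 294 ventrally (log2 difference 1.11, SE 0.17, limma adjusted p = 0.000234). Its adaptor EDARADD was at 238, 339 and 451 dorsally and 154, 210 and 304 ventrally (log2 difference 0.68, SE 0.09, limma adjusted p = 7.57e-05). LEF1, a nuclear effector of WNT signalling, was at 7383, 10684 and 13302 dorsally and 3690, 4517 and 6350 ventrally (log2 difference 1.06, SE 0.10, limma adjusted p = 7.51e-06), without overlap. BMP7, a BMP ligand of the skin, differed by 0.48 (SE 0.14, limma adjusted p = 0.0174), a call that ended in 7 alternatives. SHH, expressed in placodes once they have formed, held at most 50.9 normalised reads in any of the 18 libraries, with 68.4 ± 104 in the flank, and was not called (log2 difference 0.84, SE 0.54, limma adjusted p = 0.277).

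SOX18, the ventral member of the placode list, is also a vascular gene. It was at 66.1, 188 and 319 dorsally and 317, 421 and 656 ventrally (log2 difference -1.53, SE 0.16, limma adjusted p = 1.03e-05). The summed level of the endothelial markers, SOX18 itself among them, was 1627, 3591 and 5483 dorsally and 4398, 5638 and 7631 ventrally. The part of endothelium in the SOX18 difference was not tested.

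Dermal matrix and fibroblast genes split by member rather than by list. Of 26 tested, 7 were higher dorsally (26.9%), 6 ventrally (23.1%) and 13 not called, with a median of -0.01. COL12A1, a fibril-associated collagen of dense connective tissue, was at 966, 2970 and 5240 dorsally and 247, 381 and 1905 ventrally (log2 difference 2.54, SE 0.18, limma adjusted p = 9.6e-07). COL14A1, its relative, was at 4704, 7397 and 9446 dorsally and 1472, 3638 and 7978 ventrally (log2 difference 0.94, SE 0.08, limma adjusted p = 2.66e-06). DPT, dermatopontin, was at 46.2, 93.8 and 201 dorsally and 0, 13.1 and 69.7 ventrally (log2 difference 3.21, SE 0.58, limma adjusted p = 0.00111). THY1, a fibroblast surface protein, and THBS1, thrombospondin 1, differed by 1.99 (SE 0.28, limma adjusted p = 0.00012) and 1.82 (SE 0.17, limma adjusted p = 5.15e-06).

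The 6 ventral members were COL5A1, a fibrillar collagen, DCN, LUM, KERA, VCAN and TGFBI. DCN, decorin, was at 13281, 15176 and 23935 dorsally and 16616, 19718 and 33501 ventrally (log2 difference -0.40, SE 0.06, limma adjusted p = 0.000154). LUM, lumican, was at 7532, 11158 and 16260 dorsally and 10981, 16184 and 37489 ventrally (log2 difference -0.67, SE 0.17, limma adjusted p = 0.0095). VCAN, versican of loose matrix, was at 1772, 3622 and 6201 dorsally and 3622, 6634 and 15127 ventrally (log2 difference -1.10, SE 0.22, limma adjusted p = 0.00221). TGFBI, a matrix protein induced by TGF-beta, was at 76.3, 1717 and 2924 dorsally and 451, 2825 and 30107 ventrally (log2 difference -1.95, SE 0.39, limma adjusted p = 0.00258). Ventral anterior skin held the highest mean of each of DCN, LUM and TGFBI, and none of these 3 was called without it. The call for LUM also ended without number 8 or 11, and that for TGFBI without the saddle or with the flank.

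Of 35 WNT signalling genes tested, 24 were called, 14 higher dorsally (40%, against 14.5% of all genes) and 10 ventrally (28.6%, against 13.1%), with a median of 0.30. The dorsal members included ligands of the ectoderm. WNT7A was at 344, 448 and 621 dorsally and 97.3, 162 and 243 ventrally (log2 difference 1.53, SE 0.11, limma adjusted p = 8.89e-07), and WNT7B at 502, 689 and 906 dorsally and 222, 334 and 493 ventrally (log2 difference 1, SE 0.11, limma adjusted p = 2.45e-05). Both were free of overlap. WNT6 was at 1364, 2375 and 3538 dorsally and 548, 915 and 1373 ventrally (log2 difference 1.29, SE 0.16, limma adjusted p = 4.53e-05). WNT11, a ligand that acts without beta-catenin in many settings, was at 1532, 3659 and 6830 dorsally and 121, 1630 and 3434 ventrally (log2 difference 1.51, SE 0.38, limma adjusted p = 0.00979); its call ended without number 8, number 11 or dorsal anterior skin. The summed level of the epidermal list moved the same way as these ligands, and its part in their differences was not tested.

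NKD1, an inhibitor induced by the signal, was at 4897, 8267 and 11468 dorsally and 1237, 2611 and 5467 ventrally (log2 difference 1.58, SE 0.14, limma adjusted p = 3.54e-06). KREMEN1, a receptor of the DKK inhibitors, was at 1534, 1868 and 3157 dorsally and 633, 892 and 2043 ventrally (log2 difference 1.06, SE 0.09, limma adjusted p = 2.73e-06). The ventral side held other ligands and modulators. WNT5A, a ligand that usually acts without beta-catenin, was at 765, 1518 and 3948 dorsally and 3188, 4788 and 12295 ventrally (log2 difference -1.62, SE 0.10, limma adjusted p = 1.73e-07). It was highest anteriorly on both sides, 3464 ± 574 on the back and 9571 ± 2893 on the belly, and lower on the back at either end. SFRP2, a secreted WNT antagonist, and RSPO2, a secreted enhancer, differed by -1.82 (SE 0.42, limma adjusted p = 0.00626) and -1.91 (SE 0.39, limma adjusted p = 0.00239). Without number 8 neither of the last pair was called and the list had 15 calls in place of 24. SFRP2 was also not called without number 11 or dorsal anterior skin. RSPO2 differed by -2.54 between the anterior locations and by -0.03 between the posterior ones. The difference between these ends was not called (limma adjusted p = 0.196).

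BMP and TGF-beta genes had 11 members higher dorsally and 4 ventrally of 31 tested, with a median of 0.34. The dorsal ones included secreted BMP antagonists. GREM1 was at 508, 773 and 1483 dorsally and 17.5, 53.6 and 227 ventrally (log2 difference 3.77, SE 0.39, limma adjusted p = 1.76e-05). NOG, noggin, was at 0, 15.9 and 66.5 dorsally and 0, 0 and 5.23 ventrally (log2 difference 3.22, SE 0.57, limma adjusted p = 0.000803). GREM1 did not overlap between the sides, NOG did, and NOG was not called without number 8. TWSG1, a modulator that binds BMPs, and ACVR2A, a type II receptor, differed by 0.77 (SE 0.08, limma adjusted p = 8.67e-06) and 0.78 (SE 0.11, limma adjusted p = 0.000126).

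The ligand BMP4 was itself higher dorsally, at 681, 1373 and 3570 against 105, 497 and 5054 (log2 difference 1.69, SE 0.37, limma adjusted p = 0.00448). Its highest library of all was a ventral one, ventral anterior number 3, and the other 8 ventral libraries held at most 705. The call ended without number 8 and without dorsal anterior skin. The 4 ventral members were NBL1, INHBA, CHRDL1 and TGFB2. NBL1, an antagonist of the DAN family to which GREM1 also belongs, was at 168, 326 and 725 dorsally and 299, 1031 and 1715 ventrally (log2 difference -1.38, SE 0.16, limma adjusted p = 3.76e-05). INHBA, the activin A subunit, was at 46.4, 120 and 609 dorsally and 166, 499 and 1358 ventrally (log2 difference -1.88, SE 0.27, limma adjusted p = 0.000163). CHRDL1, a chordin-like antagonist, differed by -2.20 (SE 0.57, limma adjusted p = 0.0111), a call that ended in 5 alternatives, among them leaving out number 8 or 11. It differed by -2.99 between the anterior locations and by 0.19 between the posterior ones. The difference between the ends was not called (limma adjusted p = 0.274).

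Of 22 FGF genes tested, 6 were higher dorsally and 7 ventrally, with a median of -0.20. The ligands FGF10 and FGF7 were higher ventrally and the receptor FGFR2 dorsally. FGF10, a mesenchymal ligand of limb and skin, was at 0, 7.07 and 23.0 dorsally and 53.3, 100 and 249 ventrally (log2 difference -4.14, SE 0.34, limma adjusted p = 1.64e-06). FGF7, keratinocyte growth factor, was at 6.36, 18.6 and 57.6 dorsally and 64.3, 162 and 412 ventrally (log2 difference -2.95, SE 0.39, limma adjusted p = 7.94e-05). FGFR2, whose epithelial form binds both, was at 7116, 9275 and 10383 dorsally and 3925, 4911 and 6882 ventrally (log2 difference 0.84, SE 0.08, limma adjusted p = 6.04e-06). None of these 3 overlapped between the sides; the gene-level values do not separate the receptor's forms.

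FGF18 was lower dorsally too, at 1.82, 18.3 and 83.2 against 12.5, 57.9 and 186 (log2 difference -2.03, SE 0.35, limma adjusted p = 0.000662). DUSP6, a phosphatase induced by FGF signalling, was at 262, 484 and 815 dorsally and 422, 1270 and 1708 ventrally (log2 difference -1.21, SE 0.14, limma adjusted p = 3.14e-05). FGFBP2, an FGF binding protein, was at 10.6, 20.9 and 68.2 dorsally and 0, 6.54 and 15.4 ventrally (log2 difference 2, SE 0.45, limma adjusted p = 0.00426) and was not called without number 3.

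Retinoic acid genes were uneven. Of 11 tested, 4 were higher ventrally and 1 dorsally, with a median of -0.39. ALDH1A1, a synthesising enzyme, was at 0, 0 and 1.77 dorsally and 0, 46.3 and 156 ventrally (log2 difference -4.65, SE 0.66, limma adjusted p = 0.000143). The dorsal libraries held 3 reads in all, giving a ventral to dorsal ratio of 192 with a 95% interval of 65.4 to 936. It too covers counting error of the pooled reads only. CRABP1, a cellular retinoic acid binding protein, was at 1115, 1943 and 6100 dorsally and 443, 1987 and 41790 ventrally (log2 difference -0.91, SE 0.23, limma adjusted p = 0.00881). Ventral anterior skin carried it, at 35947 ± 6612, and without that location the difference was 0.58 with the opposite sign. CYP26A1, which degrades retinoic acid, was the dorsal member (log2 difference 0.96, SE 0.28, limma adjusted p = 0.0212), and its call ended in 7 alternatives. The receptor RARA (-0.39, SE 0.11, limma adjusted p = 0.0203) and the retinol binding protein RBP5 (-0.43, SE 0.14, limma adjusted p = 0.035) were not called in 9 and 17 of 37 alternatives. The list had 2 calls in place of 5 without each of the 3 numbers and without the saddle, and 3 without the block, with the flank or without ventral-most skin; CRABP1 was not called without number 3 or 11.

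Notch genes were higher ventrally in 4 of 9 tested and dorsally in 1, with a median of -0.48, and the ligands were divided. HES1, a target of the pathway, was at 326, 554 and 858 dorsally and 1082, 1460 and 2225 ventrally (log2 difference -1.47, SE 0.16, limma adjusted p = 1.88e-05), without overlap. JAG1 was at 28.5, 63.9 and 229 dorsally and 109, 249 and 565 ventrally (log2 difference -1.97, SE 0.27, limma adjusted p = 0.000111), whereas JAG2 was at 1424, 2243 and 3158 dorsally and 605, 1020 and 1790 ventrally (log2 difference 1.15, SE 0.13, limma adjusted p = 1.88e-05). DLL4, a ligand of sprouting vessels, differed by -1.09 (SE 0.26, limma adjusted p = 0.00689), a call lost in 5 alternatives, and DLK1 by -0.87 (SE 0.13, limma adjusted p = 0.000284), lost without the block. Endothelial markers were higher ventrally as well, and their part in these differences was not tested. None of 10 hedgehog genes was called by limma, none had an unadjusted p below 0.05, and edgeR and DESeq2 called none; their median was 0.02. Without ventral anterior skin 4 were called. Each of 7 other alternatives called 1: the flank among the ventral locations, leaving out dorsal anterior, dorsal posterior, ventral-most or ventral posterior skin, and leaving out number 3 of dorsal or of ventral anterior skin.

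Axon and cell guidance genes had 13 of 36 tested members higher dorsally and 7 ventrally, with a median of 0.15. SEMA3D, a secreted semaphorin, was at 3995, 5785 and 9580 dorsally and 2157, 3296 and 4843 ventrally (log2 difference 0.99, SE 0.11, limma adjusted p = 2.88e-05). SEMA5A, a membrane semaphorin, was at 2669, 3964 and 7132 dorsally and 1218, 2064 and 4042 ventrally (log2 difference 1.04, SE 0.11, limma adjusted p = 9.63e-06). The semaphorin receptor PLXNA2 was at 1373, 1864 and 3193 dorsally and 514, 863 and 1997 ventrally (log2 difference 1.07, SE 0.13, limma adjusted p = 4.14e-05). EFNA2, an ephrin, was at 63.9, 99.6 and 194 dorsally and 169, 202 and 215 ventrally (log2 difference -0.90, SE 0.12, limma adjusted p = 0.000111), and the ephrin receptor EPHA3 differed by -1.17 (SE 0.20, limma adjusted p = 0.000653). EPHA3 was highest posteriorly on either side, at 4240 ± 1285 and 15263 ± 4963, and was not called without ventral posterior skin. UNC5C, a netrin receptor, was at 129, 252 and 1200 dorsally and 323, 1194 and 1915 ventrally (log2 difference -1.82, SE 0.36, limma adjusted p = 0.00206). It differed by -2.43 between the anterior locations (limma adjusted p = 0.0168) and by -0.14 between the posterior ones (limma adjusted p = 0.942). The difference between the ends was not called (limma adjusted p = 0.195). The list's 20 calls were 12 without the block and 13 without number 8.

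Cell cycle genes differed little. Of 25 tested, 7 were higher ventrally and none dorsally, with a median of -0.10. CCND2, cyclin D2, was at 2150, 3029 and 3273 dorsally and 2361, 3954 and 4428 ventrally (log2 difference -0.35, SE 0.05, limma adjusted p = 0.000292), and CCND1, cyclin D1, differed by -0.44 (SE 0.11, limma adjusted p = 0.00962). The mitotic genes NUSAP1, TOP2A and CDK1 differed by between -0.22 and -0.28. The list had 2 calls in place of 7 without the block, without number 3 or without number 8, 3 without ventral-most skin, and 4 without dorsal posterior skin or without 1 of 4 single libraries (dorsal saddle number 8, dorsal posterior number 3, ventral posterior numbers 3 and 8). Of the 5 genes named, CCND2 was called in every alternative run.

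Markers of tissues that a piece of skin can carry moved in part with the side. Endothelial genes were higher ventrally in 9 of 11 tested and dorsally in 1 (VWF, whose call of 0.69, SE 0.22, limma adjusted p = 0.0281, ended in 14 of 37 alternatives), with a median of -1.26. FLT1, a VEGF receptor, was at 13.1, 33.2 and 81.2 dorsally and 64.3, 104 and 148 ventrally (log2 difference -1.54, SE 0.22, limma adjusted p = 0.000168). ERG, an endothelial ETS factor, was at 246, 401 and 693 dorsally and 464, 681 and 1014 ventrally (log2 difference -0.68, SE 0.08, limma adjusted p = 4.3e-05). CDH5, the endothelial cadherin, and TIE1, a vascular receptor, differed by -1.26 (SE 0.29, limma adjusted p = 0.00609) and -1.30 (SE 0.33, limma adjusted p = 0.0101); neither was called without dorsal anterior or ventral-most skin, CDH5 also not with the flank and TIE1 not without number 3. The list's 10 calls were 6 without number 3 and 5 without dorsal anterior or ventral-most skin.

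Red cell genes were higher ventrally in 4 of 7 tested, with a median of -0.85. Their summed level, 6354, 11471 and 50823 dorsally and 13386, 28863 and 57719 ventrally, overlapped widely, since dorsal posterior number 8 alone held 29369 normalised reads of the alpha globin HBAA. HBAA differed by -1.31 (SE 0.43, limma adjusted p = 0.0377), HBAD by -1.29 (SE 0.43, limma adjusted p = 0.0409), RHAG, an erythrocyte channel, by -1.31 (SE 0.42, limma adjusted p = 0.0314) and EPB42, a membrane skeleton protein, by -0.85 (SE 0.30, limma adjusted p = 0.0452). Each of these calls ended in 16 to 20 of 37 alternatives, many of them leaving out 1 library. Macrophage genes had 2 of 8 higher ventrally, C1QA and LAPTM5 at -0.54 and -0.58, whose calls ended in 16 and 13 alternatives.

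Skeletal muscle genes had 1 of 15 called, MYH7B higher dorsally (2.09, SE 0.54, limma adjusted p = 0.0104), a call lost without number 3 or ventral-most skin. Their summed level was 169 to 2833 dorsally and 187 to 5400 ventrally. Of spinal cord progenitor genes SOX21 was called and the other 2 tested were not. SOX2 held 0 reads in all 18 libraries, as did ELAVL3 among neuronal genes, and SNAP25 held at most 22.7. Other members of these lists were read in each of the 18 libraries. DCX was at 306 to 2255, ELAVL4 at 200 to 688 and the progenitor gene FABP7 at 919 to 6791. Neuronal genes had 2 of 9 called, SYT1 higher dorsally (0.58, SE 0.11, limma adjusted p = 0.00129; not called without number 3) and STMN2 higher ventrally, at 1.75, 9.96 and 18.8 dorsally and 0, 230 and 651 ventrally (log2 difference -3.52, SE 0.66, limma adjusted p = 0.00133). Schwann cell and crest genes had 3 of 5 higher dorsally, SOX10, TFAP2B and CDH19 (2.51, SE 0.57, limma adjusted p = 0.00497; not called without number 8 or ventral posterior skin), of which SOX10 and TFAP2B also stand in the melanoblast list. Their part in the melanoblast differences was not tested.

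The remaining marker lists were small or unsteady. Cartilage genes had 4 of 9 higher dorsally, SOX6 (1.13, SE 0.18, limma adjusted p = 0.000337), SOX5 (1.03, SE 0.27, limma adjusted p = 0.0114), CNMD and EPYC, and SOX9 higher ventrally; between 1 and 3 of the 5 calls were made in several alternatives, and those of SOX5, CNMD and EPYC ended in 4, 16 and 20. Of 4 liver genes 2 were higher dorsally. APOH was at 6.27, 23.2 and 45.2 dorsally and 0, 0 and 4.36 ventrally (log2 difference 3.91, SE 0.48, limma adjusted p = 4.47e-05), and ITIH2 differed by 3.61 (SE 0.58, limma adjusted p = 0.000368), while ALB was not called and TTR held 0 reads throughout. Smooth muscle genes had 1 of 6 called (MYLK, 1.05, SE 0.19, limma adjusted p = 0.0011; not without ventral-most skin). Mesothelium and kidney genes had 2 of 4, UPK1B higher dorsally (1.71, SE 0.22, limma adjusted p = 5.28e-05) and BNC1 ventrally (-0.58, SE 0.15, limma adjusted p = 0.0114; not without number 8, dorsal anterior or ventral-most skin). Heart genes had 1 of 4, HCN4 at -2.01 (SE 0.59, limma adjusted p = 0.0196), lost in 5 alternatives. Stress and immediate early genes had 4 of 11 higher dorsally, EGR1 (1.21), HSPA2 (0.73), JUN (0.60) and HSPA8 (0.18), of which HSPA2 was called in every alternative run and the others were not called in 4, 5 and 15.

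**Figure D2:**
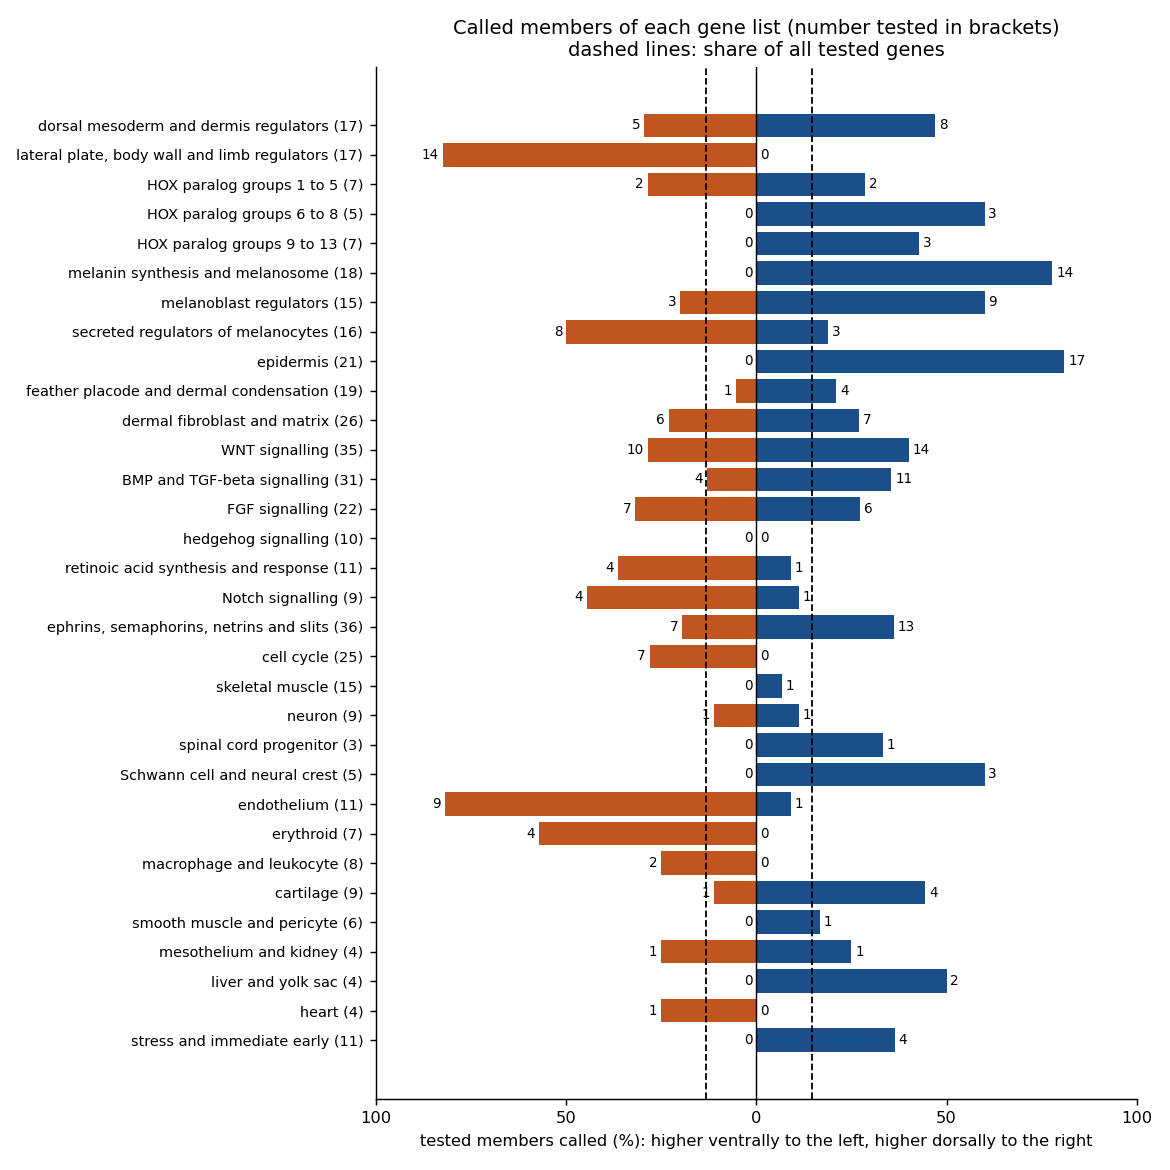
Percent of the tested members of each of 32 gene lists called higher dorsally (blue, to the right) or ventrally (orange, to the left); dashed lines are the shares over all 13900 genes tested, 14.5% and 13.1%. Epidermis (17 of 21) and melanin genes (14 of 18) reach furthest to the right among the biology lists, and lateral plate regulators (14 of 17) and endothelium (9 of 11) furthest to the left.

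Beyond the lists, the named genes with the largest dorsal excess and no overlap also held CDK15, KCNK13 and PIWIL1. CDK15, a cyclin-dependent kinase, was at 24.1, 99.0 and 165 dorsally and 0, 2.05 and 21.8 ventrally (log2 difference 4.44, SE 0.44, limma adjusted p = 7.61e-06). KCNK13, a potassium channel, was at 341, 640 and 1256 dorsally and 10.7, 48.1 and 319 ventrally (log2 difference 3.49, SE 0.52, limma adjusted p = 0.00029). PIWIL1, an Argonaute family protein best known from the germ line, was at 197, 377 and 493 dorsally and 12.5, 55.4 and 178 ventrally (log2 difference 2.81, SE 0.34, limma adjusted p = 4.43e-05). None of the 3 was called as varying within either side, but CDK15 was not even along the back. Its dorsal posterior libraries held 24.1, 37.6 and 33.9, against 82.4 to 165 in dorsal anterior and saddle skin.

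Those with the largest ventral excess included several receptors and nuclear factors. NR2F1, the nuclear receptor COUP-TF1, was at 9.08, 25.2 and 47.8 dorsally and 78.0, 129 and 218 ventrally (log2 difference -2.47, SE 0.20, limma adjusted p = 1.71e-06). EBF3, a mesenchymal helix-loop-helix factor, was at 206, 394 and 789 dorsally and 1233, 1650 and 7398 ventrally (log2 difference -2.40, SE 0.25, limma adjusted p = 2.08e-05). DNAJC12, a heat shock protein 40 relative, was at 100, 206 and 445 dorsally and 717, 1522 and 2396 ventrally (log2 difference -2.71, SE 0.17, limma adjusted p = 2.12e-07). All 3 were picked among genes without overlap, so their separation is part of that choice and not a further result.

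HTR2B, a serotonin receptor, was at 14.9, 45.4 and 79.9 dorsally and 127, 201 and 389 ventrally (log2 difference -2.39, SE 0.30, limma adjusted p = 5.81e-05). FHL2, a LIM domain co-regulator, was at 188, 340 and 558 dorsally and 642, 1279 and 2299 ventrally (log2 difference -1.90, SE 0.16, limma adjusted p = 2.18e-06). GREB1, known in human cells as an oestrogen-induced gene, was at 68.3, 227 and 322 dorsally and 432, 664 and 1575 ventrally (log2 difference -2.18, SE 0.20, limma adjusted p = 3.99e-06). The others were ECEL1, a membrane endopeptidase (-2.79, SE 0.50, limma adjusted p = 0.000905), ANGPTL1, an angiopoietin-like protein (-1.98, SE 0.27, limma adjusted p = 0.000155), the receptor GPR20 (-1.86, SE 0.37, limma adjusted p = 0.00188) and the ion exchanger SLC24A2 (-1.54, SE 0.17, limma adjusted p = 2.07e-05).

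**Figure D3:**
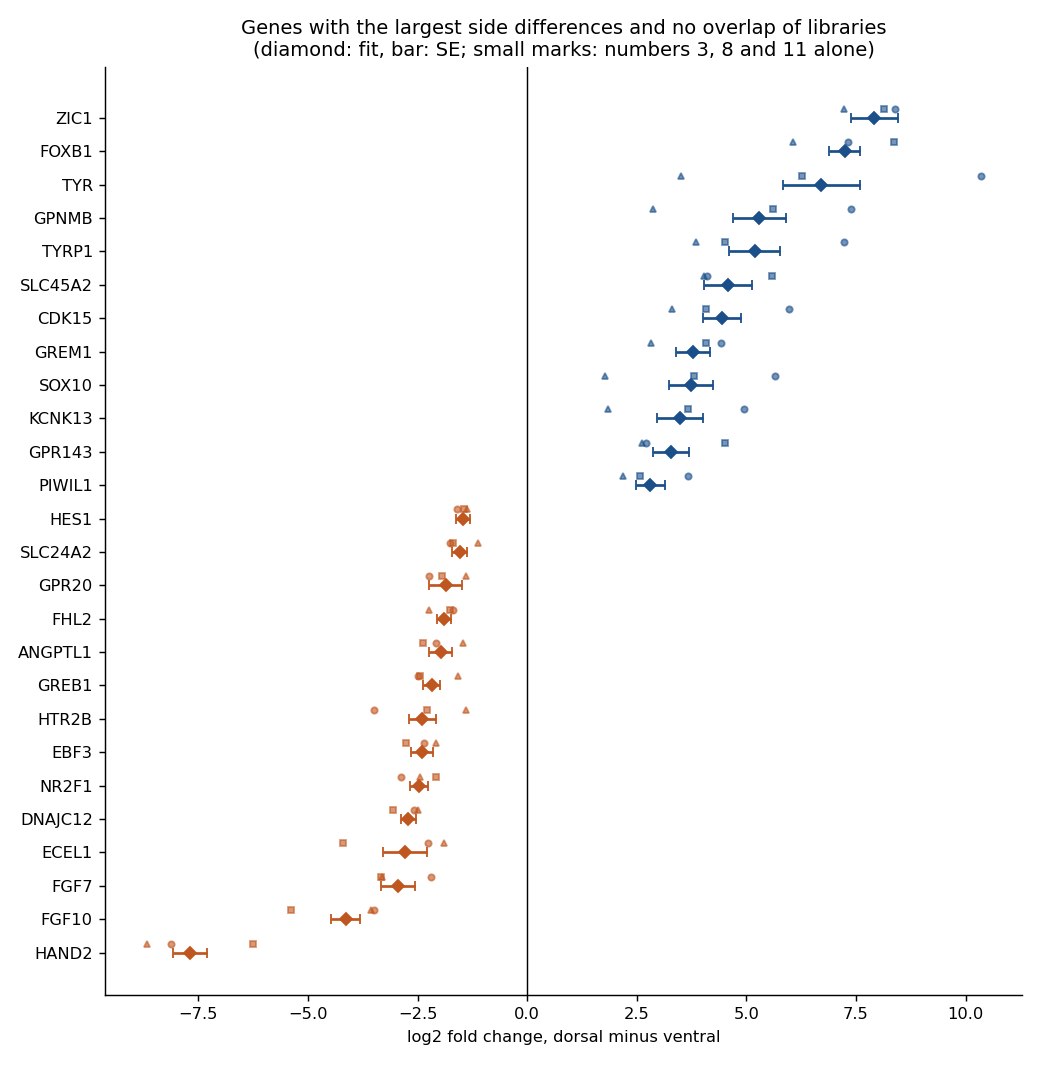
Dorsal minus ventral difference in log2(normalised reads + 1) of up to 14 genes per direction with the largest size among named genes without overlap; diamonds are the fit with bars of 1 SE, small marks the difference within each number (3, 8, 11). They run from 7.92 for ZIC1 to -7.69 for HAND2, and the marks of TYR lie far apart.

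Most genes that differed between the sides were not called as differing within a side. Their share with such a call was still above that of all genes tested. With 3 libraries per location, a missing call does not show that the locations were alike. Among the 3 dorsal locations 754 genes were called (5.42%) and among the 3 ventral locations 1094 (7.87%). Of the 3848 genes called between the sides, 480 (12.5%) were also called within dorsal skin and 567 (14.7%) within ventral skin, 907 in one or the other. These counts depended on the numbers: 89 genes within dorsal skin and 149 within ventral skin were called without number 8.

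Whether the side difference itself was alike at the front and the rear was asked by subtracting the posterior from the anterior contrast. This difference was called for 480 genes (3.45%). As a signed value, dorsal minus ventral, the side difference was higher anteriorly for 224 and posteriorly for 256. Of the 480, 317 were also called between the sides, and the contrasts had opposite signs in 309, but only 19 genes were called in opposite directions at the front and the rear. ASIP is an example of size without a change of sign: it was lower dorsally by 2.62 in anterior skin and by 7.63 in posterior skin (log2 differences -2.62 and -7.63, limma adjusted p = 0.04 and 0.00026), and the difference between them was 5.01 (limma adjusted p = 0.0302).

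Several genes had a side difference at 1 end. DSP differed by 1.88 anteriorly (limma adjusted p = 8.2e-06) and by 0.21 posteriorly (limma adjusted p = 0.54), and the ends differed by 1.68 (limma adjusted p = 0.00193). KITLG differed by 1.54 and 0.34, with a difference of 1.2 between the ends (limma adjusted p = 0.0274), and SLC24A5 by 1.33 and 0.01, with 1.32 (limma adjusted p = 0.00195). SLC18A2, a vesicular monoamine transporter, stood at 571 ± 294 in dorsal anterior skin and 5.89 ± 8.26 in dorsal posterior skin, against 11.2 ± 8.66 and 24.7 ± 4.06 at the ventral ends (difference 8.53, limma adjusted p = 0.00373). Its call between the sides (log2 difference 2.85, SE 0.55, limma adjusted p = 0.00145) ended without dorsal anterior skin.

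The ventral side had such genes too. PIRT, a regulator of sensory channels, was at 67.7 ± 21.7 in ventral anterior skin against 1.15 ± 0.995 in dorsal anterior skin, but 5.28 ± 3.52 against 10.4 ± 7.11 posteriorly (difference -5.86, limma adjusted p = 0.00173). ALX1, a homeobox gene of craniofacial mesenchyme, was at 467 ± 620 in ventral anterior skin and 12.3 ± 2.71 in ventral posterior skin (difference -5.85, limma adjusted p = 0.0167). CASR, the calcium-sensing receptor, ran the other way along the belly, from 21.9 ± 16 anteriorly to 757 ± 496 posteriorly (difference 5.87, limma adjusted p = 0.0111), and OSR2 was called at the rear and not at the front (0.11 anteriorly, -7.31 posteriorly, difference 7.43, limma adjusted p = 0.00134). The calls between the sides ended without ventral anterior skin for PIRT, without ventral-most skin for ALX1, and without ventral-most or ventral posterior skin for CASR. Differences between the ends rest on 3 libraries per location: without number 8 only 6 genes of all tested had one, and ASIP had none without the block, number 8 or number 11.

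**Figure D4:**
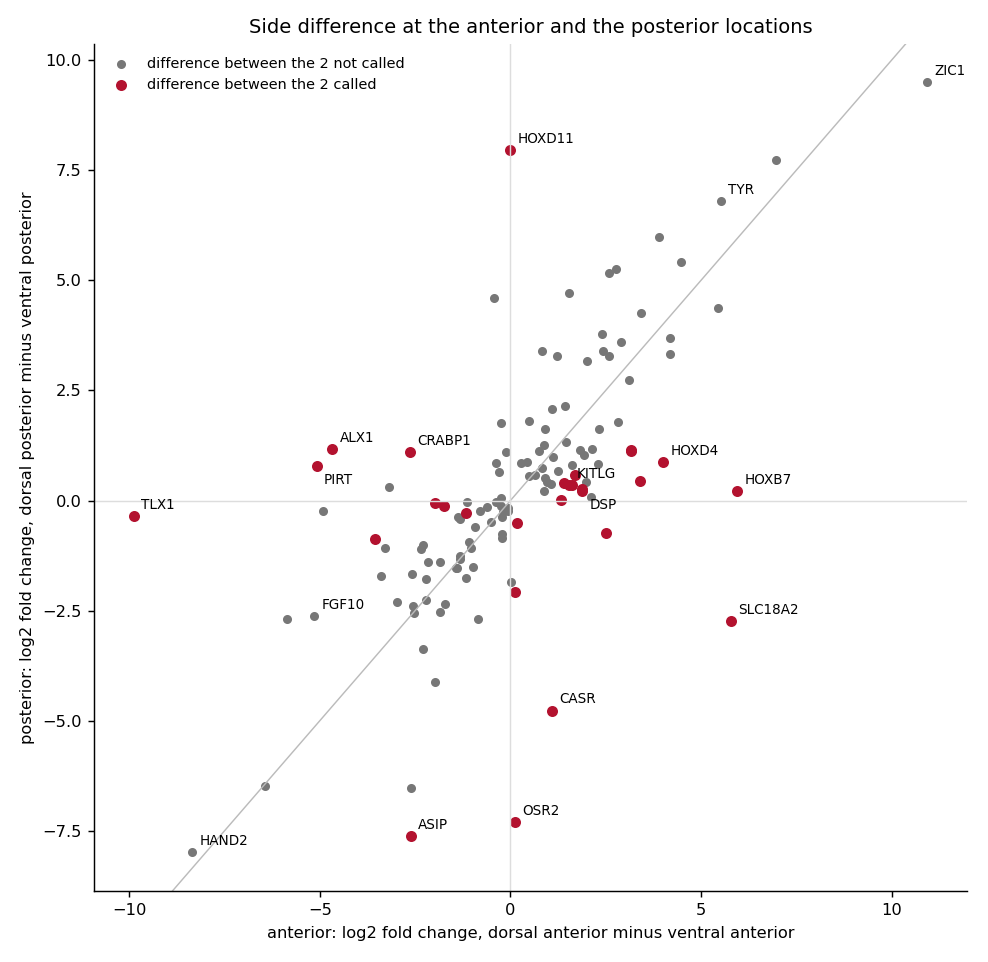
Dorsal minus ventral log2 difference in posterior skin against that in anterior skin for the named genes; red marks genes for which the difference between the ends was called, and points on the diagonal have the same difference at either end. Genes off the diagonal include TLX1 (-9.89 anteriorly), HOXD11 (7.96 posteriorly), OSR2 and SLC18A2.

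The flank was set against either side in a fit of all 21 libraries. Against the 3 ventral locations it differed in 1005 genes (7.23%), 538 higher and 467 lower in the flank, and against the 3 dorsal locations in 2804 (20.2%), 1312 higher and 1492 lower. Without number 8 these counts were 136 and 843. Adding the flank to the ventral locations moved some side differences. The difference of TYR, at 301 ± 90.8 in the flank, went from 6.71 to 5.57. LRRTM4, a synaptic adhesion gene, was at 36.2, 45.8 and 119 dorsally and 5.84, 9.08 and 17 ventrally, but at 284 ± 83.0 in the flank, and its difference went from 2.53 to 1.34.

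Some ventral genes with a low flank moved too. MAB21L2, a nuclear factor of body wall and eye development, was at 111, 903 and 3880 dorsally and 2915, 3337 and 8176 ventrally, with 34.1 ± 14.6 in the flank; its difference went from -2.60 (SE 0.46, limma adjusted p = 0.00114) to -0.82. MECOM, a zinc finger factor, was at 10.9, 107 and 273 dorsally and 195, 465 and 4283 ventrally, with 38.1 ± 34.8 in the flank, and went from -2.77 (SE 0.44, limma adjusted p = 0.000477) to -1.48. TGFBI, at 97.9 ± 6.01 in the flank, went from -1.95 to -0.61. None of these 3 was called with the flank among the ventral locations. HTR7, a serotonin receptor at 19.7, 48.1 and 430 dorsally, 136, 635 and 2477 ventrally and 10.5 ± 9.06 in the flank, went from -2.88 (SE 0.22, limma adjusted p = 1.14e-06) to -1.27 and was still called.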

How the data were processed

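RNA was sequenced from 18 dorsal and ventral skin libraries, and 3 flank libraries served for separate tests. Per the labels' protocols, RNA was amplified with SMART-Seq v4 and libraries were made with Nextera XT. These carry no molecular identifiers, so reads can be amplified copies of the same molecule. The intervals on ratios therefore cover counting error of reads only, not of molecules. Tools named in the submitters' processing notes are STAR 2.4.0, FastQC, Picard, SAMtools and DESeq2. The sources used here do not give the genome build, the annotation or the read counter. Each deposited value is a signal, a read count divided by the library's size factor by the authors, per the labels, which name the table as DESeq2-normalized. Dividing by each library's smallest step gave whole reads for 100% of values within 0.01 reads, so a 0 is 0 reads. Coordinates are as the deposited table gives them; whether a gene overlaps others was not examined. Symbols (8537 of 18202 genes) came by Entrez identifier from RefSeq's bTaeGut7.mat gene table (8122) or from the deposited name (415).

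Genes that reached a value of 10 in 3 or more of the 18 libraries were kept (13900). limma 3.58.1 in R 4.3.3 was run with trend and robust moderation on log2(value + 1), with 6 locations and the number as terms, and p was Benjamini-Hochberg adjusted over all genes kept. The numbers pair libraries: deviations from location means correlated at 0.308 to 0.536 in all 45 pairs of libraries with the same number. In 90 pairs with different numbers they correlated at -0.317 to -0.0657. Deviations cancel within a location, so these negative values follow from the positive ones and are no separate evidence of pairing. edgeR 4.0.16 (quasi-likelihood) and DESeq2 1.42.0 were run on the recovered reads as alternatives. The limma fit of the side contrast was checked on simulated counts with 200 changed genes. That simulation held no effects of location and none of number that differ by side, so it cannot judge the fit where these occur. Other alternatives changed the pseudocount (0.5 or 10), the filter, the scaling and the libraries. Tables and figures used Python 3.11.15, pandas 2.3.3, scipy 1.17.1 and matplotlib 3.10.9.

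The genes named are those of a rule. It takes 14 genes per direction with the largest difference, no overlap and a mean log2 level of 5 or more on the higher side, then up to 5 called members of each of 19 biology lists and 3 of each of 13 lists of other tissues, by adjusted p. It adds ASIP, TYR, KIT, KITLG, MITF, EDNRB and SOX10, 4 genes per direction whose side difference differs most between anterior and posterior skin, and 6 moved most by the flank. Lists and members were chosen with earlier results of these data known. Chosen after their values were seen were DMRT2, TBX15, TBX18, MEOX1, MEOX2, SIM1, TWIST2, GATA5, TRPM1, MLPH, GDNF, BCL2, SOX9, GRHL3, SHH, DPT, LUM, VCAN, WNT6, WNT7B, WNT11, SFRP2, RSPO2, NOG, INHBA, CHRDL1, FGFBP2, UNC5C, VWF, CDH5, TIE1, EPB42, EPYC and HSPA8, as were list members named without a value. MC1R, EDN3 and EDNRB2 are not analysed here, and some genes that the rule names are not reported here.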

Additional observations from a re-analysis of the deposited data

Results flagged for a closer look

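In 260 groups of 9 libraries (130 named genes on either side), 11 held a value apart from the other 8 on the log2(value + 1) scale. For 9 values drawn alike from 1 normal spread, chance alone flags about 1 group in 20. Groups here mix locations and numbers, so that rate is only a rough guide. 3 were highest in ventral anterior number 3: BMP4 at 5054 (others 105 to 705), CYP26A1 at 473 (others 89.0 to 193) and EBF3 at 7398 (others 1233 to 2541). Ventral anterior number 11 held the highest ventral MITF, 1048 (others 263 to 437), and the lowest ventral RBP5, 857 (others 1687 to 3231). Dorsal saddle number 11 held the highest dorsal HOXA6, 596 (others 156 to 305), and the lowest dorsal TGFBI, 76.3 (others 503 to 2924). HBAA was highest dorsally in dorsal posterior number 8, at 29369 (others 2861 to 7854). Ventral posterior number 11 held no STMN2, 0 against 38.3 to 651. The rest were traces where a gene was otherwise at or near 0: TLX1 at 4.70 in dorsal posterior number 8 and HAND2 at 11.5 in dorsal saddle number 8.

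For 28 named genes the side difference was unlike in anterior and posterior skin by the limma test of that difference. The signed difference, dorsal minus ventral, was higher anteriorly by 8.53 for SLC18A2, 7.43 for OSR2, 5.87 for CASR, 5.73 for HOXB7 and 5.01 for ASIP. It was higher there by 3.24 for HOXA6, 3.13 for HOXD4, 2.96 for HOXA7 and 2.19 for NBL1. The same sign was found for HOXD3 (2.05), SOX21 (2.03), DSP (1.68), COL14A1 (1.63), SLC24A5 (1.32), PLXNA2 (1.26), KITLG (1.2), SEMA3D (1.14), TP63 (1.01) and CCND2 (0.689). The opposite sign was found for TLX1 (-9.53), HOXD11 (-7.96), PIRT (-5.86), ALX1 (-5.85), CRABP1 (-3.74), GREB1 (-2.68), DUSP6 (-1.93), ADAMTS9 (-1.62) and HOXA3 (-0.875). Sign and size differ: for OSR2, CASR, ASIP, NBL1 and CCND2 the side difference was larger in size posteriorly, where it was below 0. Of the 28, 13 were called with no replicate block, 14 without number 3, 2 without number 8 and 19 without number 11. HOXB7 and HOXA7 were the 2 called without each of the 3 numbers.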

How the results depend on the processing

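With the number as a block, 3848 genes were called between the sides. With no replicate block the count was 2242, 1239 higher dorsally and 1003 ventrally. Without it 231 genes differed within dorsal skin, 429 within ventral skin and 106 between the ends, and the flank differed in 414 genes from ventral and in 1464 from dorsal skin.

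Leaving out a number gave 1800 to 3168 called genes, 1019 to 1722 dorsal and 781 to 1446 ventral, and 816 to 1130 of at least 2-fold; leaving out 1 library gave up to 3832, 2028, 1804 and 1258. Leaving out a number gave 89 to 537 genes within dorsal skin, 149 to 599 within ventral skin and 6 to 320 between the ends. For the flank it gave 136 to 1118 against ventral and 843 to 2423 against dorsal skin. The lowest counts were those without number 8, the highest those without number 11. edgeR called 1985 dorsal and 1772 ventral genes, DESeq2 2227 and 2097.

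Of 130 genes named by the rule and reported, 81 kept their call in all 37 alternatives. Signs turned for HOXA11 (-1.09), HOXA3 (0.0049), MITF (0.10) and TBX18 (0.13) without dorsal posterior skin. Without ventral anterior skin they turned for HOXB7 (-1.05), HOXA7 (-0.14), HOXA6 (-0.031), HOXA3 (0.47), CRABP1 (0.58) and MITF (0.16). MITF also turned without number 11 (0.049; -0.155 without number 8) and without the dorsal posterior (0.0054) or ventral anterior (0.03) library of that number. The causes were not tested. Depth limits genes with few reads, such as NOG.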
